A study of Mus musculus with 18 samples.

Results

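Apical resection at P2 was compared with sham surgery at P2 in GFP+ Tcf21-lineage cardiac fibroblasts collected 3 days later, at P5. The libraries were taken by their sample labels: the 3 libraries of P2 resected +3 days and the 3 libraries of P2 sham +3 days, 6 of the 18 bulk RNA-seq libraries of the series, with every gene of the count table. The other 12 libraries are the baseline groups at P2 and P10 and the sham and resected groups operated at P10, with 3 libraries each. All pups were C57BL/6J TCF21 MerCreMer/+; Rosa mTmG/+ and received 4-hydroxytamoxifen at P1, so that the sham controls carried the same Cre and reporter alleles and the same drug as the resected pups. In the resected group the apex was cut off at P2, and in the sham group the chest was opened and the heart exposed and replaced. Cells were dissociated from the apical part of the ventricles without atria and valves, and GFP+ cells were sorted. The label follows Tcf21, an epicardial and fibroblast transcription factor, at the time of 1 dose of the drug, so cells that took up Tcf21 expression later are not labelled. Neither the number nor the sex of the pups in a library is given in the sources used here, and nothing says which litter a library came from, so that litter and surgery cannot be told apart and the p-values measure the spread between these libraries, which may be technical in part. In bulk samples fewer cells of a type and less RNA per cell cannot be told apart.

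Cardiac fibroblasts make and maintain the interstitial matrix of the heart, whose load is borne mainly by fibrillar collagens types I and III. After injury they are known to take on an activated state, with contractile proteins such as smooth muscle actin, matricellular proteins such as periostin and tenascin-C, and secreted signals that act on macrophages and cardiomyocytes. In mice the heart regenerates after resection in the first days of life and scars when the injury comes later, and this comparison asks what labelled fibroblasts express while the early wound is being filled.

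The 6 libraries held between 14297349 and 22980554 counts on genes. At an equal depth of 10462737 counts, the smallest total among the 18 libraries, 19494, 18317 and 18908 gene symbols were detected in resected replicates 1 to 3 and 16545, 15676 and 16729 in the sham replicates. The groups did not overlap, and the difference was 2590 gene symbols (p = 0.1 by a two-sided exact permutation test, which cannot go lower with 3 libraries against 3, 0.233 after Benjamini-Hochberg adjustment over 7 library measures). The P2 baseline libraries detected between 15729 and 17460. P2 sham replicate 1 stood apart. Its log2 values correlated across genes at 0.852 and 0.868 (Pearson's r) with those of sham replicates 2 and 3, which reached 0.922 with each other, while pairs of resected replicates were at 0.937 to 0.957. Its log2 CPM (counts relative to a library's TMM-scaled total) deviated upward with transcript length, with a Spearman correlation of 0.23 across genes, while sham replicates 2 and 3 were at -0.36 and -0.16 and the resected replicates at 0.11, 0.15 and 0.20. The P10 sham libraries spread alike, from -0.25 to 0.25. Medians and counts of gene lists in the P2 comparison are therefore also given with single libraries left out, and a range of medians names the libraries that gave its ends. Xist, of the inactive X chromosome, was counted and Y-linked Ddx3y was not in P2 resected replicate 1 and in P2 sham replicates 1 and 3, and the reverse held in the other 3, so that sex was not the same in each group.

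**Figure D1:**
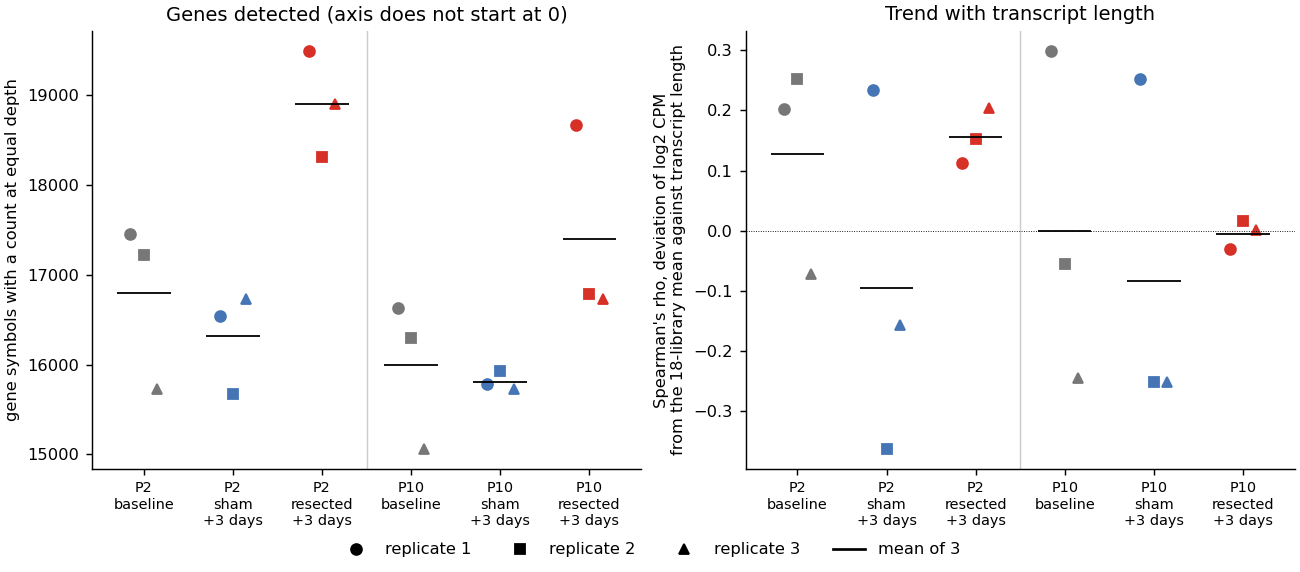
Left, gene symbols with at least 1 count in each of the 18 libraries after thinning to 10462737 counts; right, Spearman's correlation across genes between a library's deviation from the mean log2 CPM of all libraries and transcript length. Symbols are replicates and lines are means of 3; P2 resected libraries lie at 18317 to 19494 detected symbols, above all other P2 libraries, and P2 sham replicate 1 lies apart from the other P2 sham libraries at the right.

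The sort was checked against markers. Tcf21 was at 341, 209 and 203 CPM in the resected replicates and 251, 447 and 296 CPM in the sham replicates, and Pdgfra, a surface receptor of cardiac fibroblasts, at 352, 387 and 442 and 559, 256 and 287 CPM. The groups overlapped for both. Of the 12 fibroblast identity genes, 3 had an unadjusted p under 0.05, and these were the collagens Col1a2, Col3a1 and Col1a1. That is 25% against 3.38% of all genes tested, and there were 0 without P2 resected replicate 3 or with the 6 libraries alone, 1 without P2 sham replicate 2 or 3 and 4 without P2 sham replicate 1 or P2 resected replicate 1 (7.46% and 3.19% of all genes). Transcripts of other cell types were present too. The 12 cardiomyocyte markers summed to 341 to 1008 CPM in the resected and 1002 to 1420 CPM in the sham libraries, and the 10 endothelial markers to 211 to 512 and 180.1 to 335 CPM. The 16 macrophage markers ranged over 78.5 to 492 CPM in the resected and 8.41 to 208 CPM in the sham libraries, the 6 erythroid markers over 43.9 to 115 against 51.0 to 307 CPM, and the 10 epicardial and mesothelial markers over 1115 to 1251 against 893 to 1194 CPM. The neutrophil, lymphocyte and Schwann cell markers each summed to at most 45.0 CPM in any of the 6 libraries. No count of Ngp, Sox10 or Cd3e, which mark neutrophils, Schwann cells and T cells, was found in them.

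After Benjamini-Hochberg adjustment of edgeR's quasi-likelihood p-values, 0 of 16170 tested genes (0%) passed 0.05 between resected and sham fibroblasts, and the smallest adjusted p was 1. At an unadjusted p under 0.05 there were 547 higher genes (3.38%) and 183 lower genes (1.13%). All 3 resected libraries lay above all 3 sham libraries for 908 genes (5.62%) and below them for 461 (2.85%). With offsets that took out each library's trend with transcript length and GC content, 491 genes were higher and 361 lower at an unadjusted p under 0.05, and the share of higher genes went from 74.9% to 57.6%. On the same 16170 genes, leaving out 1 library gave from 390 higher genes without P2 resected replicate 3 to 1206 (7.46%) without P2 sham replicate 1. DESeq2's Wald test called 32 of 19692 genes (0.163%). Hence the values below describe single genes whose adjusted p from edgeR was 1, and "higher" and "lower" refer to the measured levels. The median 95% interval of a log2 fold change reached 0.60 to either side in the most abundant quintile of the tested genes and 4.19 in the least abundant quintile, which is the precision that 3 libraries a group gave.

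Among genes with a mean of at least 10 CPM whose groups did not overlap, the 10 higher genes with the smallest p were Nbas, Col18a1, Ccdc97, Myo1e, Thbs4, Col5a3, Spp1, Hp, Slc45a4 and Sugp2. Nbas, which acts in retrograde transport from the Golgi to the endoplasmic reticulum, was at 38.0, 56.3 and 53.3 CPM in the resected replicates and 19.6, 14.99 and 22.8 CPM in the sham replicates, with 46.8 ± 6.36 CPM (SD, n = 3) at P2 baseline. The baseline level was thus near the resected one, and the sham level lay below both. The baseline pups had no surgery and were collected at P2, not P5. In every reading against baseline, age and surgery therefore both differ. Ccdc97, a coiled-coil protein, was at 37.3, 45.9 and 41.5 CPM after resection and 22.2, 20.8 and 21.4 CPM after sham surgery, which gave 0.95 as log2 fold change with a standard error of 0.23. The sham libraries spanned under 2 CPM for this gene. Myo1e, an unconventional myosin of actin-rich membranes, was at 19.5, 13.8 and 27.9 against 8.92, 7.56 and 4.96 CPM, a log2 fold change of 1.51 (standard error 0.36). The solute carrier Slc45a4 was at 53.3, 40.5 and 47.5 against 23.9, 11.5 and 25.9 CPM, and the splicing factor Sugp2 at 23.5, 20.3 and 16.4 against 11.2, 6.87 and 9.20 CPM.

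Thbs4, Spp1, Hp and Col18a1 are among the 10 higher genes, so that their separation from the sham libraries follows from the rule that chose them. Thbs4, a thrombospondin secreted by stressed muscle and its fibroblasts, lies on chromosome 13 from 92751590 to 92794818 of GRCm38 and was at 16.4, 26.5 and 88.0 CPM in the resected and 4.37, 0.507 and 8.75 CPM in the sham replicates. Its mean was 43.6 ± 38.8 against 4.54 ± 4.12 CPM (SD, n = 3 each), and its log2 fold change was 3.27 with a 95% interval of 1.58 to 4.96, and replicate 3 was the highest library in both groups. Spp1, osteopontin, a phosphoprotein of wound matrix that binds integrins, lies on chromosome 5 from 104435118 to 104441050 and was at 36.6, 124 and 18.5 CPM after resection and 0, 2.17 and 0.131 CPM after sham surgery. Its level at P2 baseline was 1.81 ± 2.31 CPM (SD, n = 3), and its log2 fold change of 6.23 had a standard error of 1.58. Hp, haptoglobin, the plasma protein that binds free haemoglobin, was at 12.7, 44.6 and 27.1 CPM after resection and 0, 2.31 and 0.718 CPM after sham surgery. In each of these the lowest resected library was also above the highest baseline library. Col18a1 encodes the collagen XVIII chain of basement membranes, from which endostatin is cut. It lies on chromosome 10 from 77052178 to 77166548 and was at 158, 113 and 105 against 45.6, 27.7 and 70.9 CPM, and at 105 ± 38.7 CPM (SD, n = 3) at P2 baseline, so that its sham level was again the lowest.

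**Figure D2:**
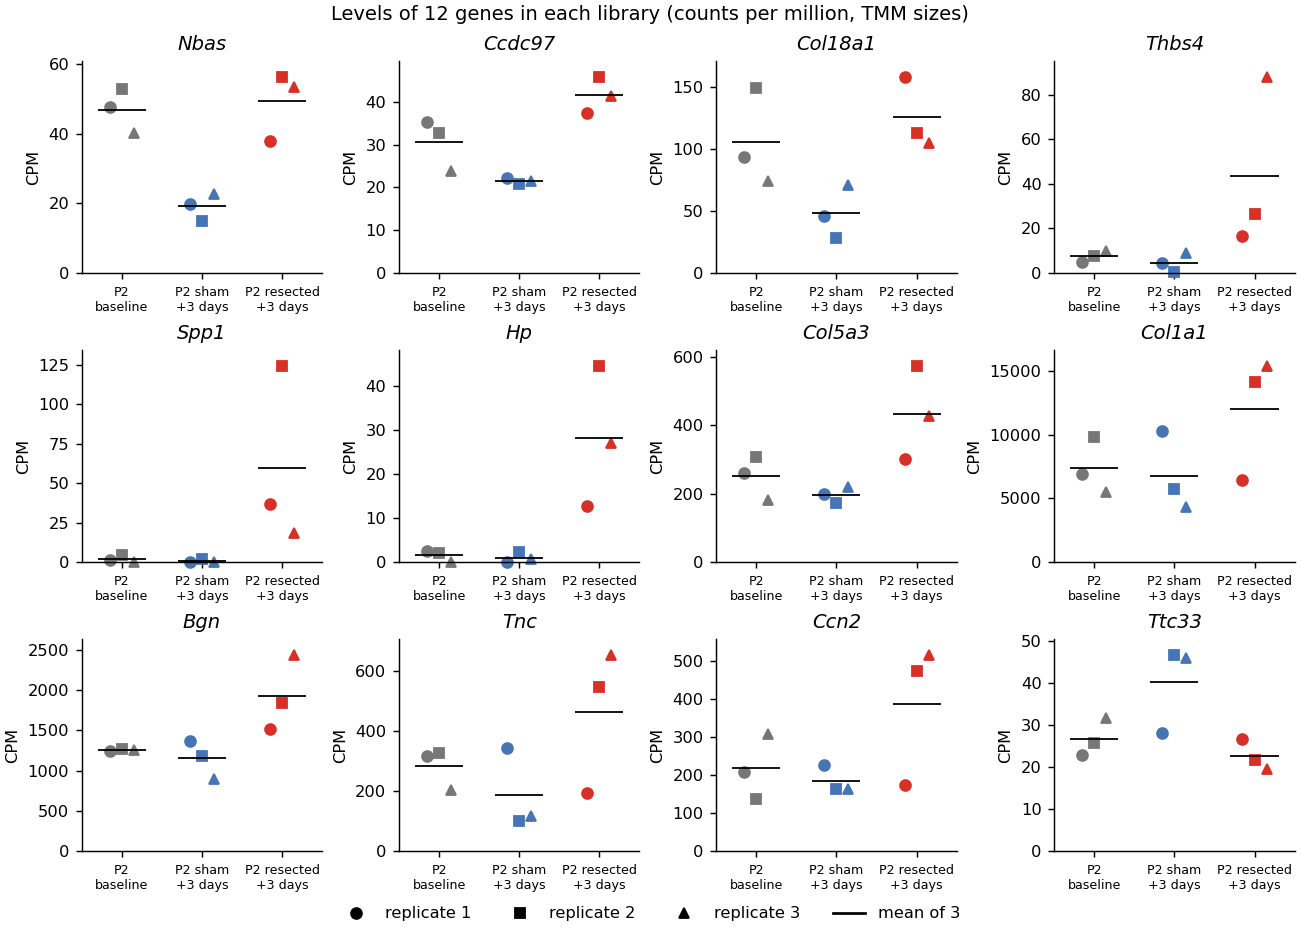
CPM of 12 genes in each P2 library, with the baseline, sham and resected groups side by side; symbols are replicates, lines are means of 3, and every axis starts at 0. Nbas, Ccdc97, Col18a1, Thbs4, Spp1, Hp, Col5a3 and Bgn are higher in every resected than in every sham library, Ttc33 is lower in every one, and for Col1a1, Tnc and Ccn2 resected replicate 1 lies within the range of the sham libraries.

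The 10 lower genes chosen by the same rule were Ttc33, Polb, Acyp2, Trmt11, Kazn, Fkbp3, Ube2b, Ormdl1, Pcbd2 and Fam174a. Polb, the DNA polymerase of base excision repair, was at 25.6, 19.9 and 21.6 CPM in the resected replicates and 37.7, 39.6 and 37.7 CPM in the sham replicates, a log2 fold change of -0.78 (standard error 0.26). Ttc33, a tetratricopeptide repeat protein, was at 26.5, 21.5 and 19.5 against 28.0, 46.6 and 45.9 CPM. Ube2b, a ubiquitin-conjugating enzyme of the DNA damage response, was at 105, 84.8 and 111 against 112, 160.4 and 189 CPM, and Trmt11, a tRNA methyltransferase subunit, at 9.73, 9.91 and 8.70 against 12.4, 23.3 and 29.4 CPM. For Ttc33, Ube2b and Trmt11 the sham library nearest to the resected ones was replicate 1. At P2 baseline Polb was at 23.7 ± 4.85, Ttc33 at 26.7 ± 4.51 and Ube2b at 107 ± 14.2 CPM (SD, n = 3), in the range of the resected libraries or close to it. The log2 fold changes of the 10 lay between -1.20 (Trmt11) and -0.62 (Ube2b).

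Most collagen genes lay on the higher side after resection. Of 35 genes of fibrillar, fibril-associated and related collagens 32 were tested, and 26 of these were higher and 6 lower after resection, with a median log2 fold change of 0.61 against 0 over all genes tested. An unadjusted p under 0.05 was reached by 11 of the 32, all higher, which is 34.4% against 3.38% of all genes, and by 6 to 20 when each library was left out (20 without P2 sham replicate 1, where 7.46% of all genes were higher at that p). The median ranged from 0.40 without P2 resected replicate 3 to 1.16 without P2 sham replicate 1. In the fit of the 6 libraries alone, and in that fit with a replicate block, 2 of the 26 collagens tested there (7.69%) were higher at that p, beside 1.58% and 1.49% of all genes. Col5a3, a chain of collagen V, which regulates fibril width, was at 300.5, 574 and 428 CPM in the resected and 199.5, 171 and 219 CPM in the sham replicates, a log2 fold change of 1.14 (standard error 0.29). Col5a1, another collagen V chain, was at 3695, 4183 and 4637 against 3632, 2328 and 1832 CPM, so that both were higher in every resected library, Col5a1 by a narrow margin in replicate 1. Col1a1 and Col1a2 encode the chains of collagen I. Col1a1 was at 6451, 14119 and 15422 CPM in the resected replicates and 10274, 5757 and 4340 CPM in the sham replicates. Col1a2 was at 7880, 13197 and 15326 against 9772, 6437 and 5510 CPM. Col3a1, the chain of collagen III, was at 27560, 42337 and 48983 against 30396, 22921 and 24595 CPM. In these 3 genes resected replicates 2 and 3 lay above all sham libraries and resected replicate 1 below sham replicate 1. Their log2 fold changes were 0.82, 0.75 and 0.61 with standard errors of 0.35, 0.25 and 0.23, and without sham replicate 1 they were 1.25, 1.03 and 0.74. Col11a2, a chain of the minor fibrillar collagen XI, had 26, 34 and 1 counts in the resected replicates and none after sham surgery, at least 20.3-fold higher, where the sham group is set to 3 counts in its 3 libraries together. With 1 library left out this bound was between 12.8 with P2 sham replicate 2 left out and 28.9 with P2 resected replicate 3 left out, and P2 baseline libraries averaged 1.53 ± 1.16 CPM (SD, n = 3).

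Basement membrane genes followed with fewer members past that p. Of 22 tested, 18 were higher and 4 lower, with a median of 0.49, and 4 (18.2%, against 3.38% of all genes) had an unadjusted p under 0.05, all higher. Without P2 sham replicate 3 there were 2, and without P2 sham replicate 1 there were 12 of 23, where 7.46% of all genes were higher. The median ranged from 0.37 without P2 resected replicate 3 to 1.03 without P2 sham replicate 1. The 4 genes with all libraries were Col18a1, Lama5, Lamb3 and Lamc3. Lama5, the laminin chain of mature epithelial and vascular basement membranes, was at 8.85, 2.48 and 7.54 CPM in the resected and 0.0464, 0 and 0.522 CPM in the sham replicates, and at 1.02 ± 1.29 CPM (SD, n = 3) at P2 baseline. Lamb3, a chain of laminin-332, was at 0.704, 2.05 and 2.64 against 0, 0.277 and 0 CPM. The collagen IV chains Col4a1 and Col4a2, which form the network of basement membranes, showed the split of collagen I, with 2595, 4974 and 5345 against 4648, 1953 and 1866 CPM for Col4a1. Resected replicate 1 and sham replicate 1 were again the libraries that made the groups overlap.

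Enzymes that fold, hydroxylate and crosslink procollagen were less far apart. Of 25 tested, 22 were higher and 3 lower (median 0.28), and 3 (12%, against 3.38% of all genes) had an unadjusted p under 0.05, all higher. There were 0 without P2 resected replicate 3 and 7 without P2 sham replicate 1, where 7.46% of all genes were higher, and the median ranged from 0.20 without P2 resected replicate 3 to 0.47 without P2 sham replicate 1. Loxl1, a lysyl oxidase that crosslinks elastin and collagen, was at 660.1, 798 and 869.7 against 517, 611 and 514 CPM, a log2 fold change of 0.50 (standard error 0.18). P4ha1, a catalytic subunit of prolyl 4-hydroxylase, was at 169.8, 227 and 227 against 156, 143 and 148 CPM, and Plod3, a lysyl hydroxylase, at 131, 154 and 159.8 against 112, 102 and 96.8 CPM. In all 3 the groups did not overlap, and Znhit1 on the other strand shares 11.7% of the exon bases of Plod3. The collagen chaperone Serpinh1 was at 1789, 3147 and 3211 against 1496, 2920 and 2588 CPM, which overlapped.

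Among 22 proteoglycan and hyaluronan genes, the median was 0.39 and 1 gene, Bgn, had an unadjusted p under 0.05 (4.55%, near the 3.38% of all genes). Bgn, biglycan, a small leucine-rich proteoglycan that binds collagen and signals to innate receptors, was at 1510, 1834 and 2434 CPM in the resected and 1370, 1180 and 899.9 CPM in the sham replicates, with 1253 ± 15.8 CPM (SD, n = 3) at P2 baseline. The groups overlapped for its relatives Dcn and Lum, decorin and lumican, at 9580, 5227 and 7593 against 7007, 8833 and 9017 CPM for Dcn and 2892, 1722 and 2526 against 1910, 3182 and 3993 CPM for Lum. Without P2 sham replicate 1, 7 genes of this list were higher and 1 lower at that p, where 7.46% of all genes were higher, and 5 were higher without P2 resected replicate 1. The median ranged from 0.20 without P2 resected replicate 3 to 0.49 without P2 sham replicate 1. Of 37 matrix proteases and inhibitors, 32 were higher and 5 lower, with a median of 0.36, and 2 had an unadjusted p under 0.05 (5.41%, near the 3.38% of all genes). There was 1 without P2 resected replicate 3 and there were 7 without P2 sham replicate 1, where 7.46% of all genes were higher, and the median ranged from 0.19 without P2 resected replicate 3 to 0.64 without P2 sham replicate 1. Mmp14, the membrane-bound collagenase that activates Mmp2, was at 1428, 1319 and 1612 against 1375, 836 and 870.2 CPM, and sham replicate 1 was within the resected range. Mmp3, stromelysin, had 32, 30 and 18 counts after resection and none after sham surgery, at least 26.6-fold higher (between 16.8 with P2 sham replicate 2 left out and 29.9 with P2 resected replicate 3 left out).

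Markers of activated fibroblasts lay mostly on the higher side as well. Of 18 tested, 17 were higher and 1 lower, the median was 0.78, and 6 (33.3%, against 3.38% of all genes) had an unadjusted p under 0.05. There were 7 with P2 resected replicate 1 left out, 6 with P2 sham replicate 1 left out, where 7.46% of all genes were higher, and 1 with P2 resected replicate 3 left out, and the median ranged from 0.44 without P2 resected replicate 3 to 0.96 without P2 resected replicate 1. Tnc, tenascin-C, a matricellular protein of embryonic and wounded tissue, was at 192, 544 and 652 CPM in the resected and 343, 99.2 and 118 CPM in the sham replicates. Ccn2, connective tissue growth factor, a target of TGF-beta and of the Hippo effector Yap, was at 173, 474 and 516 against 227, 164 and 164 CPM. As strand was ignored in counting, reads of the antisense Gm15270, which shares 23.2% of the Ccn2 exon bases, cannot be told apart from those of Ccn2. Ltbp2, a latent TGF-beta binding protein of microfibrils, was at 24.8, 65.5 and 103 against 34.7, 21.9 and 16.4 CPM. For Tnc, Ccn2 and Ltbp2 resected replicates 2 and 3 were above every sham library and resected replicate 1 was not. Their log2 fold changes were 1.31, 1.07 and 1.40 (standard errors 0.47, 0.34 and 0.51). Tgfbi, a TGF-beta induced adhesion protein, did not overlap, at 63.4, 73.2 and 89.2 against 45.5, 51.2 and 49.5 CPM. Smooth muscle actin, Acta2, named after its values were seen, was at 615, 1304 and 1476 against 518, 815 and 676 CPM, with resected replicate 1 within the sham range. Myh11, the smooth muscle myosin of mural cells, was at 23.7, 27.6 and 23.8 against 7.52, 9.41 and 3.85 CPM without overlap. The 9 mural markers had a median of 0.46 (from 0.22 without P2 sham replicate 3 to 1.07 without P2 sham replicate 1). An unadjusted p under 0.05 was reached by 1 of 9 (11.1%, against 3.38% of all genes). It was reached by 5 of 9 without P2 sham replicate 1, where 7.46% of all genes were higher. The part of the mural markers in the Acta2 values was not tested. Periostin, Postn, was at 13330, 9764 and 17040 against 17359, 6223 and 12591 CPM, a log2 difference of 0.15 with 0.43 as its standard error, and Fn1, fibronectin, at 1909, 3191 and 4074 against 3487, 786 and 968 CPM.

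Matricellular and elastic fibre genes gave 33 higher and 2 lower of 35 tested, a median of 0.57, and 8 at an unadjusted p under 0.05, which is 22.9% against 3.38% of all genes. Without P2 resected replicate 3 there were 5, and without P2 sham replicate 1 there were 14 of 36, where 7.46% of all genes were higher. The median ranged from 0.39 without P2 sham replicate 3 to 0.55 without P2 resected replicate 1. Besides Thbs4, Spp1, Ccn2 and Tnc the 8 genes included Fbln2, fibulin-2, which bridges elastic fibres and basement membranes. Fbln2 was at 1047, 1210 and 1401 CPM in the resected and 645, 648 and 839 CPM in the sham replicates, a log2 fold change of 0.78 (standard error 0.25), with no overlap. Sparc, a collagen-binding glycoprotein, was at 9701, 9592 and 11462 against 8064, 10223 and 7651 CPM, which overlapped. In TGF-beta signalling 18 of 19 tested genes were higher (median 0.32), and 4 had an unadjusted p under 0.05 (21.1%, against 3.38% of all genes). There were 0 without P2 resected replicate 3 and 6 without P2 sham replicate 1, where 7.46% of all genes were higher. The median ranged from 0.19 without P2 sham replicate 2 to 0.69 without P2 sham replicate 1. Tgfb3, a TGF-beta ligand, was at 126, 178 and 291 against 135, 95.9 and 117 CPM, and Ltbp3, which anchors the latent ligands in matrix, at 185, 302 and 334 against 157, 179 and 162 CPM. Only Ltbp3 of these 2 did not overlap. The receptor Tgfbr2 was at 308, 292 and 348 against 302, 219.8 and 247 CPM, and its groups overlapped.

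**Figure D3:**
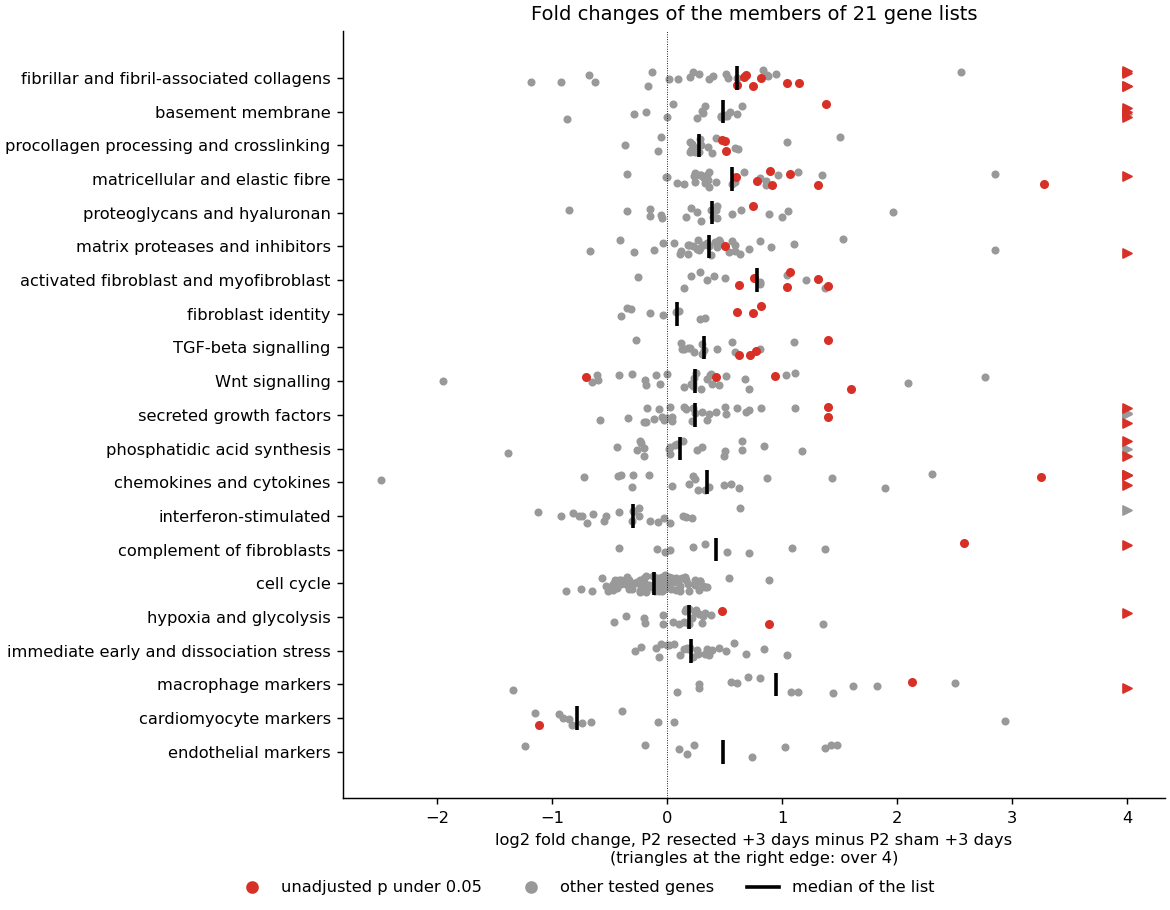
Log2 fold change (P2 resected +3 days minus P2 sham +3 days) of each tested member of 21 gene lists; red points have an unadjusted p under 0.05, black bars are list medians, and triangles mark values over 4, most of them genes with no or few sham counts. Medians of the matrix and activation lists lie between 0.28 and 0.78, those of the cell cycle and interferon lists at -0.11 and -0.29, and no cell cycle or interferon gene is red.

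Many of these matrix transcripts are long, and the fold changes of this comparison varied with transcript length. From the shortest to the longest quintile of the tested genes (longest annotated transcript up to 1721 bases and at least 5020 bases) the median log2 fold change went from -0.26 to 0.19, and without P2 sham replicate 1 from -0.35 to 0.61. At P10 the same medians were 0.0021 and 0.12. The median transcript length of the tested collagens was 5794 bases against 3142 bases for all tested genes. With the length and GC offsets the median of the collagens was 0.32 with 10 of 32 members higher at an unadjusted p under 0.05. It was 0.30 with 9 of 35 for the matricellular genes, 0.71 with 8 of 18 for the activated fibroblast genes, and 0.26 with 4 of 22 for the basement membrane genes. Over all genes the median was -0.080, with 491 of 16170 higher at that p. In other lists the medians were 0.15 for procollagen enzymes, 0.18 for proteoglycans, 0.065 for Wnt genes and -0.075 for phosphatidic acid synthesis, and 2 of 19 TGF-beta genes were higher at an unadjusted p under 0.05 in place of 4. The log2 fold change of Col1a1 was then 0.54, that of Col5a3 0.75, that of Tnc 1.10 and that of Nbas 0.99. The part of transcript length in the remaining differences was not tested.

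**Figure D4:**
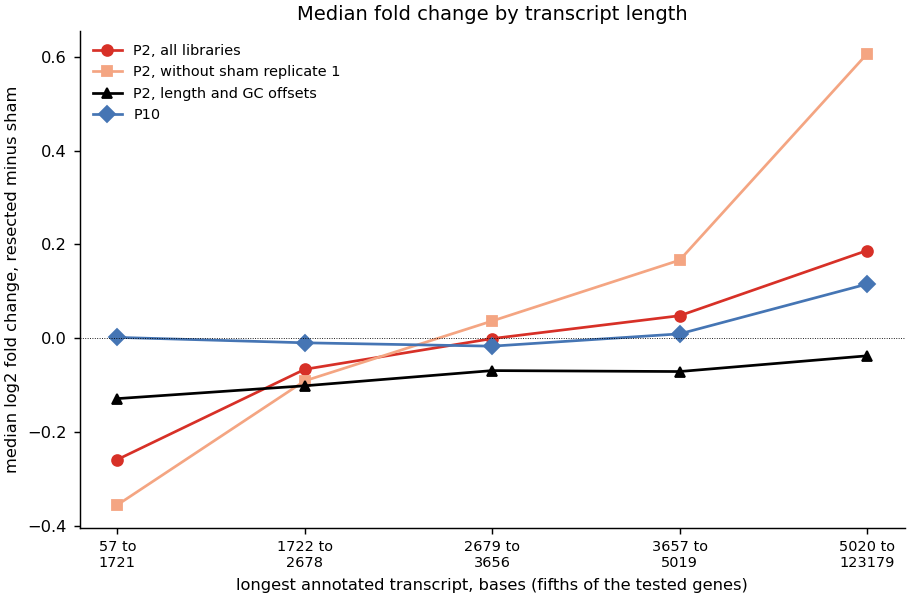
Median log2 fold change, resected minus sham, in quintiles of the tested genes ordered by the longest annotated transcript (bases). At P2 it runs from -0.26 to 0.19 with all libraries, from -0.35 to 0.61 without P2 sham replicate 1 and from -0.13 to -0.037 with length and GC offsets; at P10 it lies between -0.017 and 0.12.

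One list of 25 genes was picked by the study on these same libraries, so that it is not independent evidence of its direction. All 25 were higher after resection, 22 did not overlap between the groups, and 24 were among the 32 that DESeq2's Wald test called. They fall into abundant genes, such as Nbas, Ccdc97, Col18a1 and Thbs4 above, and rare transcripts, with 17 of the 25 under 1 CPM on average after sham surgery and 13 without any sham count. Lrp5, a Wnt co-receptor, was one with counts in every library, at 13.4, 18.7 and 11.7 CPM in the resected and 5.85, 4.80 and 3.79 CPM in the sham replicates, with a 95% interval of 0.75 to 2.45 for the log2 fold change. Cln3, a lysosomal membrane protein, was at 15.4, 11.4 and 8.09 against 2.93, 2.49 and 5.74 CPM, with 7.65% of its exon bases shared with Apobr on the other strand. Inf2, a formin that assembles and severs actin, was at 5.57, 4.23 and 5.18 against 0.0464, 0.184 and 0.914 CPM, and Otulinl at 8.68, 1.07 and 1.32 against 0.232, 0 and 0.261 CPM. In each of these the lowest resected library was above the highest sham library.

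Rare genes of that list are given as counts, since a fitted fold change against a group at 0 has no fixed value. Each fold is a lower bound that sets the sham group to 3 counts in its 3 libraries together. Kif26b, a kinesin family member, had 23, 104 and 166 counts in the resected replicates and none after sham surgery, at least 97.5-fold higher (between 61.3 with P2 resected replicate 3 left out and 127 with P2 resected replicate 1 left out). Ngef, a guanine nucleotide exchange factor, had 22, 54 and 28 counts, at least 34.6-fold higher (between 21.8 with P2 sham replicate 2 left out and 38.5 with P2 resected replicate 1 left out), and none in the P2 baseline libraries. Pcdhga8, a gamma protocadherin, had 40, 38 and 51 counts, and Ppp1r26 had 39, 68 and 18. Members of the gamma protocadherin cluster share their constant exons, so that this count is uncertain. Olfr78, an olfactory receptor gene also expressed outside the nose, had 3, 26 and 22 counts, Tlr13, an endosomal receptor for bacterial RNA, 33, 28 and 21, and Itih4, an acute phase plasma protein, 39, 51 and 1. For Itih4 resected replicate 3 held 1 of 91 counts. Ddx4, a germ cell RNA helicase, was counted 0, 3 and 43 times in the resected replicates, so that replicate 3 held nearly all of it and the groups overlapped. The unnamed transcripts Gm37949 and Gm42969 had 62, 36 and 38 and 22, 0 and 12 counts after resection. At P2 baseline Pcdhga8 averaged 2.06 ± 1.36 and Gm37949 1.68 ± 2.14 CPM (SD, n = 3). After resection they were at 1.62 to 2.81 and 1.54 to 3.64 CPM, in that order. Kif26b, Ppp1r26 and Tlr13 averaged 0.346 ± 0.547, 0.0767 ± 0.133 and 0.691 ± 1.20 CPM at baseline, each below its lowest resected library.

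Genes that make phosphatidic acid, the precursor of membrane phospholipids and a signalling lipid, had a median near that of all genes. Of 24 tested, 17 were higher and 7 lower, the median was 0.11 (from 0.060 without P2 resected replicate 2 to 0.20 without P2 resected replicate 1), and 2 (8.33%, against 3.38% of all genes) had an unadjusted p under 0.05, the diacylglycerol kinases Dgkb and Dgkg. Both were rare. Dgkb had 33, 28 and 24 counts after resection and 0, 0 and 2 after sham surgery, 42.4 times as many per library size (95% exact interval 11.4 to 356), and Dgkg had 16, 42 and 28 and none. At P2 baseline Dgkg averaged 0.804 ± 0.839 CPM (SD, n = 3), against 0.938 to 1.79 CPM after resection. Gpat2, a mitochondrial glycerol phosphate acyltransferase, had 0, 38 and 9 counts after resection and none after sham surgery, so that its groups overlapped. Intervals and bounds from counts cover counting error alone, since no molecular identifiers set duplicate reads apart. The groups overlapped for the abundant enzymes of the pathway. Gpat4, an acyltransferase of its first step, was at 127, 192 and 138 against 132, 166 and 154 CPM, a log2 fold change of 0.015 (95% interval -0.50 to 0.53), and Agpat3, of the next step, at 76.5, 110.4 and 91.9 against 92.0, 115 and 113 CPM.

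DESeq2 called 8 genes outside the study's list. Of these 7 were rare and higher, and Gbp11 was lower, with all of its counts in P2 sham replicate 1. Of the 32 calls, 20 had no count in a compared group. Lrp11, a low-density lipoprotein receptor family member, had 40, 105 and 53 counts after resection and none after sham surgery, at least 65.9-fold higher (between 41.5 with P2 sham replicate 2 left out and 74.2 with P2 resected replicate 1 left out). Dll1, a Notch ligand, had 117, 10 and 9 counts, at least 45.3-fold higher (between 8.92 with P2 resected replicate 1 left out and 69.8 with P2 resected replicate 2 left out), and 20.6% of its exon bases are shared with A930024N18Rik on the other strand. Gcnt4, a glycan-branching enzyme, had 1, 75 and 65 counts, Col17a1, a transmembrane collagen, 29, 3 and 14, and Atp8a1, a phospholipid flippase, 18, 49 and 3. Gpr50 and Zfp786 had 7, 0 and 29 and 12, 10 and 0, and none of these 5 had a sham count. At P2 baseline Lrp11 averaged 1.12 ± 1.48 and Dll1 1.48 ± 2.57 CPM (SD, n = 3), against 2.35 to 4.49 and 0.427 to 6.86 CPM after resection. The resected libraries detected more rare genes in general. In the least abundant quintile of the tested genes, up to 1.14 CPM on average, 9.15% were higher and 0.618% lower at an unadjusted p under 0.05, against 2.23% and 1.36% in the most abundant quintile. The part of this in the rare genes named here was not tested.

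Of 26 chemokines and cytokines tested 19 were higher and 7 lower (median 0.35), and 5 (19.2%, against 3.38% of all genes) had an unadjusted p under 0.05. The median ranged from -0.070 without P2 resected replicate 3 to 1.27 without P2 sham replicate 1, and the count was 2 without P2 sham replicate 2 or 3 and 0 of 19 with the 6 libraries alone. Saa3, an acute phase serum amyloid that macrophages and injured mesenchyme make, was at 21.6, 7.18 and 9.58 CPM in the resected and 0, 3.87 and 0 CPM in the sham replicates, with no count at P2 baseline. Ccl5, a T cell and monocyte attractant, had 10, 17 and 0 counts after resection and none after sham surgery, and Cxcl14, an epithelial and stromal chemokine, had 2, 5 and 3 and none. The chemokine Cxcl1, a neutrophil attractant, varied widely in both groups, at 62.6, 146 and 441 against 414, 99.4 and 42.6 CPM. Of the 8 Toll-like receptors tested 7 were higher (median 0.72, ranging from 0.39 without P2 sham replicate 1 to 1.29 without P2 sham replicate 3). Tlr13 alone (12.5%, against 3.38% of all genes) had an unadjusted p under 0.05, and none did without P2 sham replicate 2 or 3. Of 12 complement genes tested 9 were higher (median 0.43, ranging from 0.22 without P2 sham replicate 3 to 0.52 without P2 sham replicate 2). An unadjusted p under 0.05 was reached by 2 (16.7%, against 3.38% of all genes), or by 1 without P2 resected replicate 2 or 3 or P2 sham replicate 1. Clu, clusterin, a secreted chaperone that inhibits the terminal complex, was at 63.0, 29.9 and 26.8 against 2.51, 12.1 and 5.35 CPM, a log2 fold change of 2.58 (standard error 0.72), with no overlap. Cfi, which cleaves C3b, was at 1.06, 3.16 and 2.97 against 0, 0 and 0.392 CPM.

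Macrophage markers varied between the libraries of both groups. Of 16 tested 15 were higher (median 0.94, or 0.11, 0.36 and 2.02 with resected replicate 1, sham replicate 1 or sham replicate 3 left out), and 2 (12.5%, against 3.38% of all genes) had an unadjusted p under 0.05, or 1 to 3 with 1 library left out (3 without P2 resected replicate 3). Lyz2, lysozyme, was at 217, 86.6 and 40.3 CPM in the resected and 2.93, 26.7 and 49.2 CPM in the sham replicates, and the complement subunit C1qb at 52.6, 29.3 and 4.73 against 0, 21.1 and 37.8 CPM. The summed markers were at 492, 222 and 78.5 CPM against 8.41, 111 and 208 CPM, so that sham replicates 2 and 3 exceeded resected replicate 3. The part of the macrophage markers in the values of Spp1, Hp, Saa3 and Clu, named here after their values were seen, was not tested. Itgam, which encodes the CD11b integrin chain, was highest in resected replicate 1, as were the summed markers.

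Of 34 Wnt pathway genes tested 23 were higher and 11 lower (median 0.24), with 3 higher and 1 lower at an unadjusted p under 0.05, beside 3.38% and 1.13% of all genes. There were 2 higher and 0 lower without P2 sham replicate 1 and 1 higher and 0 lower without P2 resected replicate 3, and the median ranged from 0.0089 without P2 resected replicate 3 to 0.40 without P2 sham replicate 1. With the length and GC offsets the median of this list was 0.065. Wnt11, a non-canonical ligand, was at 8.62, 11.3 and 13.7 against 4.23, 6.96 and 6.33 CPM, and Wnt5b, another, was lower, at 20.5, 15.2 and 15.8 against 31.3, 26.6 and 26.1 CPM. Dkk3, a secreted Dickkopf family protein, was at 359.9, 412 and 492 against 336, 294 and 313 CPM. Of 35 secreted growth factors, 25 were higher and 10 lower (median 0.24), with 4 (11.4%, against 3.38% of all genes) at an unadjusted p under 0.05. There were 2 without P2 sham replicate 2 or P2 resected replicate 2 and 6 without P2 sham replicate 1, where 7.46% of all genes were higher, and the median ranged from 0.11 without P2 sham replicate 2 to 0.52 without P2 sham replicate 1. Pdgfa and Pdgfc, ligands of the PDGF receptor alpha of fibroblasts, were both higher in every resected library. Pdgfa was at 7.62, 13.7 and 11.0 against 6.46, 1.25 and 4.50 CPM, with 26.1% of its exon bases shared with 6330403L08Rik on the other strand, and Pdgfc had 13, 82 and 43 counts after resection and none after sham surgery. Gdf15, a stress-induced TGF-beta family member, was at 2.35, 7.09 and 8.42 against 2.65, 2.86 and 1.24 CPM. Fstl1, a secreted glycoprotein of cardiac mesenchyme, was at 4214, 4522 and 6078 against 4278, 3632 and 3731 CPM, and resected replicate 1 was below sham replicate 1.

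Of 25 hypoxia and glycolysis genes 19 were higher (median 0.19, ranging from 0.083 without P2 resected replicate 3 to 0.43 without P2 resected replicate 1) and 3 (12%, against 3.38% of all genes) had an unadjusted p under 0.05 (0 without P2 sham replicate 2 or 3). The glucose transporter Slc2a1 was at 11.4, 19.9 and 26.1 against 14.0, 9.41 and 7.64 CPM, a log2 fold change of 0.89 (standard error 0.38). Immediate early and dissociation stress genes had a median of 0.21, with 0 of 26 at an unadjusted p under 0.05 (10 without P2 sham replicate 1, where 7.46% of all genes were higher), and the median ranged from -0.10 without P2 resected replicate 3 to 0.85 without P2 sham replicate 1 and was 0.0085 without P2 sham replicate 3. Fos was at 676, 1916 and 1073 against 1724, 852 and 466 CPM. The cardiomyocyte gene Pln, phospholamban, was at 7.68, 7.60 and 9.36 against 18.5, 12.1 and 22.6 CPM, with 64.7% of its exon bases shared with Gm47644 on the other strand, and the 12 cardiomyocyte markers had a median of -0.78 (from -1.05 without P2 resected replicate 3 to -0.52 without P2 resected replicate 1).

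Cell cycle and interferon genes lay mostly on the lower side at P2. Of 97 cell cycle genes tested 27 were higher and 70 lower after resection, with a median of -0.11 and 0 at an unadjusted p under 0.05 in either direction (1 higher and 2 lower without P2 sham replicate 1). The median ranged from -0.26 without P2 resected replicate 2 to -0.019 without P2 resected replicate 1. The 17 cell cycle inhibitors tested had a median of 0.090, with 0 at that p (1 higher and 2 lower without P2 sham replicate 1). It took either sign, from -0.28 without P2 resected replicate 3 to 0.37 without P2 sham replicate 1, and was also below 0 without P2 sham replicate 2 or 3. Mki67, the proliferation antigen, named after its values were seen, was at 134, 112 and 174 CPM in the resected and 433, 33.3 and 80.3 CPM in the sham replicates, and Cdk1, the mitotic kinase, likewise, at 108, 166 and 164 against 108, 262 and 213 CPM. Of 24 interferon-stimulated genes 6 were higher and 18 lower, with a median of -0.29 (from -0.36 without P2 resected replicate 1 to -0.12 without P2 sham replicate 2) and 0 at that p. Bst2, tetherin, was at 52.7, 38.1 and 43.8 against 47.6, 61.9 and 39.7 CPM, and Ifi27 at 52.1, 54.8 and 56.0 against 37.1, 102 and 53.3 CPM.

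The P10 comparison shares no library with the P2 comparison, so that the genes above could be read in a second set of pups, collected at P13. At P10, 555 genes (3.43%) were higher and 106 (0.656%) lower at an unadjusted p under 0.05. Of the 547 genes higher at P2, 380 (69.5%) were higher and 161 lower at P10, beside 8408 (52.0%) higher and 7677 lower of all 16170 genes, and 74 (13.5%) were higher at an unadjusted p under 0.05, and of the 183 lower at P2, 130 were lower and 50 (27.3%) higher at P10, and 6 (3.28%) were lower at that p. Genes are not independent replicates, and resected libraries detected more genes than sham libraries at P10 as well, 16732 to 18675 against 15724 to 15931. Spp1 was at 108, 212 and 26.3 CPM in the P10 resected and 0.2997, 1.75 and 0 CPM in the P10 sham replicates, Thbs4 at 59.1, 36.7 and 70.7 against 9.44, 3.75 and 11.0 CPM, and Hp at 72.3, 17.5 and 435 against 8.69, 2.39 and 5.89 CPM. For each of these the P10 groups did not overlap either. Bgn, Ccn2 and Tnc had log2 fold changes of 0.58, 1.41 and 1.74 at P10 (standard errors 0.21, 0.34 and 0.48), next to 0.74, 1.07 and 1.31 at P2. Nbas, Ccdc97, Myo1e and Slc45a4 were at 0.36, 0.10, -0.26 and 0.011. The difference between the effects at the 2 ages passed an adjusted p of 0.05 for 0 of 16170 genes (0%), with a smallest adjusted p of 1 from edgeR's quasi-likelihood test. Leaving out P10 sham replicate 2 gave 4 genes at that threshold, Bub1, Cdc25c, Iqgap3 and Troap, and leaving out each other P10 library gave 0.

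By lists, the activated fibroblast genes had a median of 0.62 at P10 with 6 of 18 higher at an unadjusted p under 0.05, and the collagens 0.48 with 5 of 32, beside 3.43% of all genes. With 1 P10 library left out the first ranged from 0.59 without P10 sham replicate 2 to 0.72 without P10 sham replicate 3 and the second from 0.38 without P10 resected replicate 2 to 0.78 without P10 sham replicate 1. Members higher at an unadjusted p under 0.05 were then 3 to 5 of 18 and 3 to 9 of 34. The 9 were found without P10 sham replicate 1, where 3.88% of all genes were higher. The other matrix lists lay nearer to 0 at P10. Their medians were 0.090 for basement membrane genes with 0 of 22 higher and 1 lower at that p, 0.11 for procollagen enzymes with 0 of 25, 0.10 for matricellular genes with 6 of 35, -0.017 for proteoglycans with 2 higher and 1 lower of 22, and 0.082 for proteases and inhibitors with 4 of 37. Without P10 sham replicate 1 they were 0.53, 0.059, 0.34, 0.40 and 0.37, in the same order.

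The cell cycle and interferon lists had medians below 0 at P2 and above 0 at P10. The cell cycle list had a median of 0.89 at P10 with 32 of 97 higher at an unadjusted p under 0.05, beside 3.43% of all genes. With 1 P10 library left out its median ranged from 0.55 without P10 resected replicate 2 to 1.19 without P10 resected replicate 3, and 17 to 43 members were higher at that p. The interferon list had a median of 1.72 with 10 of 24, and this rested on P10 resected replicate 3, without which the median was 0.017 with 1 of 24. Bst2 was at 66.0, 33.9 and 300.0 CPM in the P10 resected and 35.9, 52.6 and 50.8 CPM in the P10 sham replicates. In the test of the difference between the ages, 17 of the 97 cell cycle genes had an unadjusted p under 0.05 with a higher effect at P10 (11 to 30 with 1 P10 library left out), beside 239 of all genes (1.48%). Of the 24 interferon genes 9 did so, or 1 without P10 resected replicate 3, and none of either list passed after adjustment with all libraries, while 2 cell cycle genes did without P10 sham replicate 2. Medians of most markers of other cell types were above 0 at P10 too: 3.15 for epicardial and mesothelial cells with 3 of 9 higher at an unadjusted p under 0.05 (0.98 with 1 of 9 without P10 resected replicate 1), 1.37 for erythroid cells with 3 of 6 (0.72 with 1 of 6 without P10 resected replicate 1, and 0 of 6 without P10 sham replicate 2 or 3), 2.54 for neutrophils with 1 of 6 and 1.05 for endothelial cells with 0 of 10 (0.10 without P10 resected replicate 1). The macrophage, lymphocyte, cardiomyocyte and mural markers were at 0.90, 1.54, 0.31 and 0.022 and the Schwann cell markers at -1.22 with all 4 lower, and 0 of these had an unadjusted p under 0.05. Leaving out 1 P10 library gave macrophage medians of 0.10 (resected replicate 2) to 1.40 (resected replicate 3). Lymphocyte medians were then 0.24 (resected replicate 1) to 2.31 (sham replicate 1), and cardiomyocyte medians -0.26 (resected replicate 1) to 0.92 (sham replicate 2). Without P10 sham replicate 2, 1 macrophage, 1 lymphocyte and 1 cardiomyocyte marker were higher at that p. In the test between the ages 4 of the 6 erythroid markers had an unadjusted p under 0.05 with a higher effect at P10 (1 without P10 resected replicate 1). Of the 12 cardiomyocyte markers 0 did so, or 7 without P10 sham replicate 2, where 2.26% of all genes did. The part of these markers in the P10 values of the other lists was not tested.

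**Figure D5:**
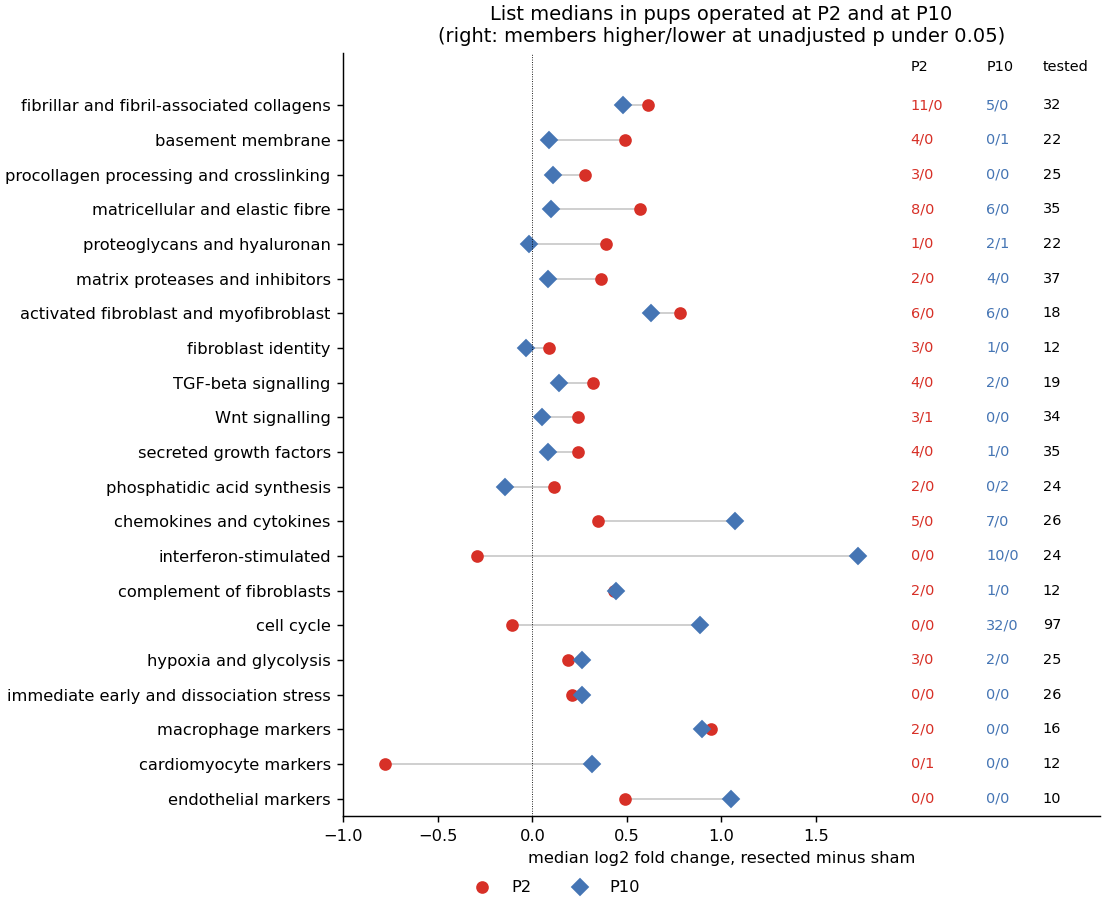
Median log2 fold change, resected minus sham, of 21 gene lists in pups operated at P2 (red circles) and at P10 (blue diamonds), with the number of members higher/lower at an unadjusted p under 0.05 and the number tested at the right. The activated fibroblast list lies at 0.78 and 0.62 and the collagens at 0.61 and 0.48, while the cell cycle list lies at -0.11 and 0.89 and the interferon list at -0.29 and 1.72 (0.017 at P10 without P10 resected replicate 3).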

How the data were processed

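GFP+ cells were profiled by bulk RNA-seq in 18 libraries, 6 of which enter this comparison. The authors deposited raw counts per gene symbol. Per the submitters' processing notes and the study's methods, reads were trimmed with fastp 0.20.0, aligned to GRCm38.p6 with STAR 2.7.0f and counted over exons with featureCounts (Subread 1.6.4) on GENCODE M22, ignoring strand. Libraries were pre-amplified from low RNA input with a SMARTer kit, which does not mark strand, and no molecular identifiers are stated, so that counts include amplification.

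Of 55453 symbols, 16170 passed edgeR's filterByExpr (minimum count 10, minimum total 15) and were fitted on all 18 libraries with 1 mean per group, TMM scaling and the quasi-likelihood test (R 4.3.3, edgeR 4.0.16), with Benjamini-Hochberg adjustment at 0.05. The fit of both ages shares 1 estimate of the spread. CPM are counts relative to a library's TMM-scaled total. Intervals are at 95%, and floors are 3 counts. Positions, lengths and strand overlaps were taken from GENCODE M21 on GRCm38, a release before that of the authors. Alternatives were limma 3.58.1 (voom with sample weights), DESeq2 1.42.0, RLE scaling, no filter, the 6 libraries alone, a replicate block, each library left out, and, chosen after seeing the data, length and GC offsets (lowess span 0.3), 2 DESeq2 reference levels and each P10 library left out. Exact tests and counting intervals used SciPy 1.17.1 and pandas 2.3.3 in Python 3.11.15. The scripts were tested on simulated data.

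Genes were named by rule: the 25 of the study's list, up to 10 per direction with the smallest p among genes of at least 10 CPM on average whose groups did not overlap, every gene called by edgeR or DESeq2, the leading and most abundant members of each gene list, and identity and sex-linked genes. The comparison whose 6 libraries are the members, the genes named and the gene lists were chosen with earlier results of these data known.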

Additional observations from a re-analysis of the deposited data

How the results depend on the processing

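Leaving out each P2 library in turn called 0 genes at an adjusted p of 0.05 by edgeR, and edgeR without the low-count filter called 24, DESeq2 called 32 (32 also with P2 sham as reference level, and 17 with P2 baseline). With 1 library left out and the filter redone, the count at an unadjusted p under 0.05 was 415 to 1227 higher and 68 to 763 lower (763 and 1227 without P2 sham replicate 1, 68, 86 and 106 lower without P2 resected replicates 2 and 3 and P2 sham replicate 2), and the non-overlapping genes were 1363 to 3311 higher and 739 to 2741 lower, the highest of each without P2 sham replicate 1. A group of 2 overlaps less by construction. Higher genes at that p were 225 with the 6 libraries alone, 1117 without the filter and 1268 by limma voom, and lower genes 396 without the filter, 852 by voom, 375 by DESeq2 and 361 with the length and GC offsets. The replicate block, fitted on the 6 libraries alone, gave 212 higher, 62 lower and 0 called, against 225, 134 and 0 for those libraries without it, and the deviations of same-numbered libraries correlated at 0.047, 0.17 and -0.14, so that the numbers were not taken to pair them. With 1 P10 library left out, chosen after seeing the data, 0 to 5 genes were called at P10 and 0 to 4 in the test between the ages, the highest of each without P10 sham replicate 2. The cause of these shifts was not tested. Signs turned for genes whose groups overlapped: with 1 library left out the log2 fold change ranged from -0.28 to 0.028 for Bst2, -0.20 to 1.46 for C1qb, -0.82 to 1.61 for Cxcl1, -0.37 to 0.053 for Dcn, -0.21 to 0.89 for Fos, -0.18 to 0.13 for Gpat4, -0.52 to 0.26 for Ifi27, -0.11 to 0.54 for Pdgfra, -0.18 to 0.51 for Postn and -0.017 to 0.45 for Serpinh1. Gpat4 was at -0.0037 with the 6 libraries alone, -0.0059 with RLE, -0.023 with the replicate block, -0.0035 by voom, -0.0054 by DESeq2 and -0.28 with the offsets, which put Pdgfra at -0.14 and Tgfbr2 at -0.11. The difference in detected genes was 766 with at least 5 counts after thinning and 3086 without thinning, in the same direction. With 1 P2 library left out it was 2269 to 2884, and its direction could not turn there because the groups did not overlap.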

Other observations

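Genes with counts in the libraries of 1 group alone were unequally split. With at least 5 counts in each library of a group and 0 in the other, 104 gene symbols were counted after P2 resection only and 3 after P2 sham surgery only, and at P10 the numbers were 53 and 3. Of the 104, 56 are annotated as protein coding, 18 as unconfirmed transcripts (TEC), 10 as antisense and 8 as lincRNA, and 87 had a count in 1 or more P2 baseline libraries while 17 had none. The resected libraries also detected more genes at equal depth, and the part of that difference in these numbers was not tested.

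Marco and Spire2 were counted in every resected library and in no sham library at both ages, and they are named after their values were seen. Marco, a scavenger receptor of macrophages, lies on chromosome 1 from 120474538 to 120505024 of GRCm38 and was at 8.91, 1.03 and 0.716 CPM in the P2 resected replicates, at least 62.9-fold higher than in the sham group (between 17.4 with P2 resected replicate 1 left out and 91.4 with P2 resected replicate 2 left out). At P10 it was at 1.29, 0.318 and 1.09 CPM, at least 17.5-fold higher. Spire2, an actin nucleator of vesicle transport, lies on chromosome 8 from 123332713 to 123369515 and was at 0.997, 0.812 and 1.65 CPM in the P2 resected replicates and 0.497, 1.59 and 1.09 CPM in the P10 resected replicates. The folds of Marco set the sham group to 3 counts in its 3 libraries together. The summed macrophage markers were also highest in P2 resected replicate 1, which held most counts of Marco, and their part in its values was not tested.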
